A study of Mus musculus with 24 samples.

Results

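The genes described here are 10 subunits of the BAF chromatin remodelling complex, also called mammalian SWI/SNF: Smarca4, Smarca2, Smarcb1, Smarcc1, Smarcc2, Smarcd1, Smarcd2, Smarcd3, Smarce1 and Arid1a. They were chosen by name, and every probe set that the platform annotation gives to 1 of them alone was taken, which gave 23 of the 45101 probe sets of the array. Smarcd3 was already known to fall in the knock-in lines when the genes were chosen, so its levels there are a description with no test. The question for the other genes, above all its paralogues Smarcd1 and Smarcd2, was whether they change too.

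The samples were undifferentiated mouse embryonic stem cells of strain 129/Sv, on 24 Affymetrix MG 430 2.0 arrays with 1 sample each, and the values are log2 expression levels. The groups differ in Hdh, now called Htt, the gene of huntingtin. The 6 knock-out arrays are titled Hdh knock-out and their genotype label is null. The knock-in cells come from the lines titled Q20, Q50, Q91 and Q111, 3 arrays each, with 7 CAG repeats on 1 allele. Their other allele carries 16 repeats (Q20), 45 repeats (Q50, but 43 on its replicate 3), 85 repeats (Q91) or 111 repeats (Q111). The 6 control arrays carry 7 repeats on both alleles. Each knock-in genotype is 1 line. The titles say biological replicate, and the labels do not tell whether that means separate clones or dishes, so the p-values cover only the spread among these arrays. The titles, group and genotype labels were followed, although the description field has control and knock-out the other way round.

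BAF complexes use the energy of ATP to slide or evict nucleosomes and so open DNA to transcription factors. A complex holds a single ATPase, Smarca4 (BRG1) or Smarca2 (BRM), a core that includes Smarcb1, the scaffold proteins Smarcc1 (BAF155) and Smarcc2 (BAF170) and the HMG-box protein Smarce1 (BAF57), and a single BAF60 protein, which is Smarcd1 (BAF60a), Smarcd2 (BAF60b) or Smarcd3 (BAF60c). Arid1a (BAF250a) is the large DNA-binding subunit that sets BAF apart from the related PBAF complex. The form of embryonic stem cells, esBAF, is known for Smarca4, Smarcc1, Smarcd1 and Arid1a, while Smarcd3 is best known in the developing heart and in muscle.

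The BAF60 genes encode alternative subunits of the same complex, of which Smarcd3 was low in every line. The sequences just upstream of a RefSeq start are therefore shown for each of them. Each is the 250 bases before a RefSeq start in GRCm38.p6, written 5′ to 3′ on the gene's own strand, with CG dinucleotides in capitals. They lie at chr5:24602003-24602252 on the minus strand for Smarcd3, chr15:99702037-99702286 on the plus strand for Smarcd1 and chr11:106267633-106267882 on the minus strand for Smarcd2. The windows of Smarcd3 and Smarcd2 lie inside the outermost bounds of their genes. That of Smarcd1 ends just before the outermost start of its gene, so the windows differ in position.
Smarcd3: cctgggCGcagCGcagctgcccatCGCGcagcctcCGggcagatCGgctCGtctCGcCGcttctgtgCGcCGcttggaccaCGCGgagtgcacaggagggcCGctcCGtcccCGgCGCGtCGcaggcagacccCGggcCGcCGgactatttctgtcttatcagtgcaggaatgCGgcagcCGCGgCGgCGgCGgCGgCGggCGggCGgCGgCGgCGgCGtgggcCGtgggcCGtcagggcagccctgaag
Smarcd1: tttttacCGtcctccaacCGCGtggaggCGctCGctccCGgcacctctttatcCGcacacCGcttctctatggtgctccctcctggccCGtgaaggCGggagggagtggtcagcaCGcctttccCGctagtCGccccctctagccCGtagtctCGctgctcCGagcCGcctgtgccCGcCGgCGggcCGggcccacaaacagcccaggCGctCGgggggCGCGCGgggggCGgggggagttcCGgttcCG
Smarcd2: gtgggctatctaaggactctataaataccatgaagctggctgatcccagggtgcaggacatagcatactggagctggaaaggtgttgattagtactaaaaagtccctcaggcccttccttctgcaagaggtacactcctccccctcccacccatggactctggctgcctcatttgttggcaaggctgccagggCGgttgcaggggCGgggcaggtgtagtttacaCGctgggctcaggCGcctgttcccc

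The Smarcd3 window held 38 CG dinucleotides and the Smarcd1 window 29, against 4 in the Smarcd2 window. The median over 32851 RefSeq promoter windows of this length was 6. Of those windows, 1.88% held at least as many as Smarcd3, 6.78% as many as Smarcd1 and 62.2% as many as Smarcd2. Smarcd3, which differed between the groups, and Smarcd1, which did not pass the test, were thus both CG-rich, and the counts describe these windows only. Of the 10 genes, 9 had a window in the table; Smarce1 did not.

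A log2 value under 5 was treated as not told from background, and a probe set was tested where at least 3 arrays reached 5. That left 17980 probe sets, 17 of the 23 described here, and 9 of the 10 genes. The 6 others lay between 1.44 and 4.85 on every array. Where a gene had several probe sets, the strongest stood for it and the others are given where they differ. Changes are differences of group means on the log2 scale from 1 limma fit of all arrays, with p-values adjusted by the Benjamini-Hochberg method over all tested probe sets and a threshold of 0.05. The genes tested numbered 9511.

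As a check of the labels, Htt had a median of 7.31 in the knock-out arrays (6.67 to 7.39), against 8.09 in controls (7.45 to 8.25), so the groups did not overlap, with a change of -0.80 (limma adjusted p = 0.00195). The labels do not say where its probes lie relative to the altered part of the gene. Htt also read lower in Q91 (-1.05, limma adjusted p = 0.000565) and Q111 (-0.79, limma adjusted p = 0.00445). All 8 markers of undifferentiated embryonic stem cells averaged 5 or more in every group, although several were lower in 3 lines. In Q20, 3 of the 8 were lower and 1 higher, in Q91 4 were lower and 1 higher, and in Q111 3 were lower and 0 higher, with median changes of -0.33, -0.25 and -0.30. In Q50 0 passed the limma threshold, and in the knock-out 1 was higher and 1 lower. The log2 of the summed unlogged levels of 5 naive pluripotency markers (Klf2, Klf4, Esrrb, Tfcp2l1 and Tbx3), in which the strongest genes weigh most, spanned 14.63 to 15.08 over the knock-out arrays. It spanned 13.23 to 13.70 over the Q20 arrays, 13.43 to 13.97 over Q50, 12.85 to 13.32 over Q91 and 13.21 to 13.94 over Q111, against 14.36 to 14.78 over the controls. With bulk RNA, fewer cells of a type and less RNA per cell cannot be told apart.

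Smarcd3 was low in all knock-in lines. Its single probe set, on chromosome 5, read 5.47, 5.09 and 5.50 in Q20. The Q50 arrays read 5.58, 4.84 and 7.11. The Q91 arrays read 6.16, 5.09 and 5.00, and the Q111 arrays 4.67, 4.50 and 5.39. In controls it read 8.62, 8.61, 8.52, 7.42, 7.55 and 7.41. Every knock-in array lay below every control array, and 4 of the 12 lay under 5, the last Q91 array among them before rounding. The means were 5.36 ± 0.23 in Q20, 5.84 ± 1.16 in Q50, 5.42 ± 0.64 in Q91 and 4.86 ± 0.47 in Q111 (SD, n = 3 each), against 8.02 ± 0.62 in controls (SD, n = 6). The differences from control were -2.67 in Q20, -2.18 in Q50, -2.61 in Q91 and -3.17 in Q111, each with an SE of 0.43, or 6.35, 4.53, 6.10 and 8.99-fold lower in that order. They were not tested, and the Q111 size is not settled because its mean lies under 5. From low to high the line means ran Q111, Q20, Q91 and Q50, and the arrays of neighbouring lines in that order overlapped.

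**Figure D1:**
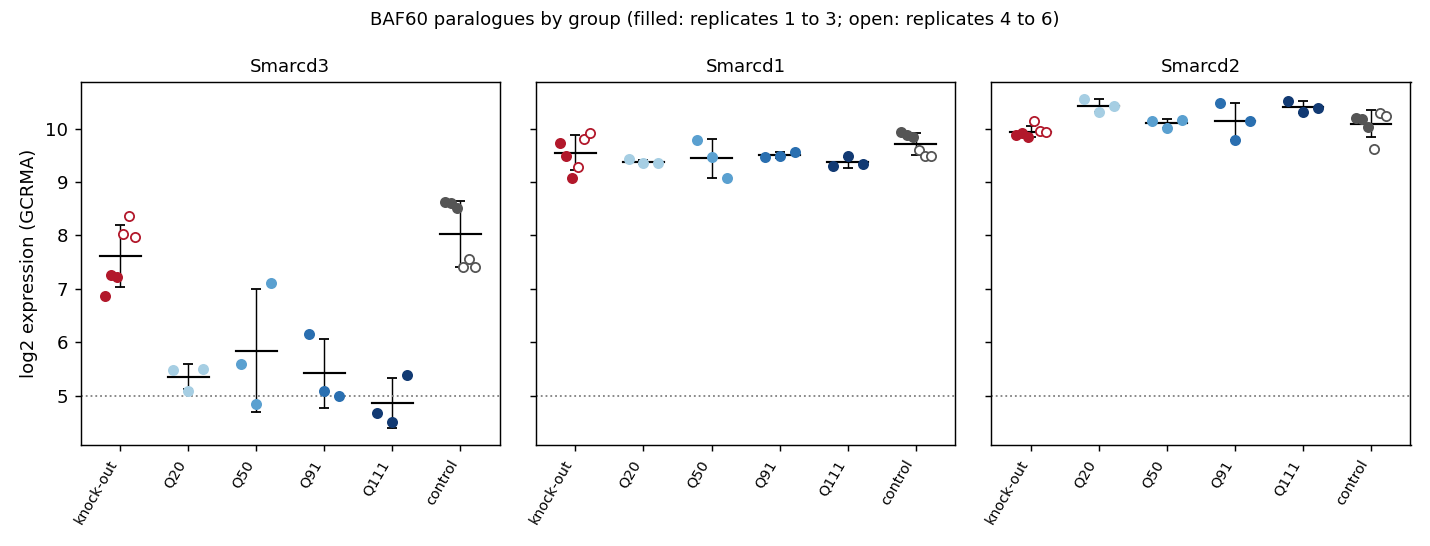
Log2 expression of the BAF60 paralogues Smarcd3, Smarcd1 and Smarcd2 on each array, by group; bars are mean ± SD, filled points are replicates 1 to 3, open points replicates 4 to 6, and the dotted line is log2 5. Smarcd3 is at or below 7.11 on every knock-in array and at or above 7.41 on every control array, while Smarcd1 and Smarcd2 overlap between most groups.

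The spread within groups of Smarcd3 had a structure. Control replicates 1 to 3 averaged 8.59 and control replicates 4 to 6 averaged 7.46. Set against the first 3 controls alone the change was -3.23 in Q20 and -3.73 in Q111, and against the last 3 alone it was -2.10 in Q20 and -2.60 in Q111. Within Q50, replicate 3 stood at 7.11 and the others at 5.58 and 4.84, and without it the Q50 change was -2.81. That array also had the largest difference between the 3′ and 5′ Actb probe sets, a sign of RNA quality, at 1.54 against 0.75 to 1.03 in the other arrays, and its part in the Smarcd3 level was not tested.

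In the knock-out, every array read higher for Smarcd3 than every knock-in array but Q50 replicate 3. It read 6.86, 7.26, 7.21, 8.02, 8.37 and 7.97 in the knock-out arrays, a mean of 7.62 ± 0.59 (SD, n = 6), against 8.02 ± 0.62 in controls. The groups overlapped and the change was -0.41 (SE 0.35, limma adjusted p = 0.498, 95% interval -1.14 to 0.33). The difference of the knock-out from the mean of the lines was 2.25, given with no test because the low level in the lines was known.

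With the replicate sets matched by number, the knock-out values of Smarcd3 lay on opposite sides of control. In replicates 1 to 3 it averaged 7.11 in knock-outs against 8.59 in controls, a difference of -1.48. In replicates 4 to 6 it averaged 8.12 in knock-outs against 7.46 in controls, a difference of 0.66. The difference between these effects was 2.14 (SE 0.19, limma adjusted p = 0.000116), in a test added after the data were seen that passed for 7.80% of the probe sets tested. Smarcd3 was the only one of the 9 tested genes past the threshold in that test. The labels do not say what sets replicates 4 to 6 apart, nor that knock-out and control sets of the same number belong together. Deviations of control and knock-out arrays from their group means correlated negatively within sets of the same number (r -0.46 to -0.099). Across sets of different number they correlated positively (r 0.15 to 0.50), in each case over all tested probe sets. By these values the sets were alike in the opposite match, not in the match by number. Matched the other way round, the knock-out averaged lower in both cases. Its replicates 4 to 6 stood at 8.12 against 8.59 in control replicates 1 to 3. Its replicates 1 to 3 stood at 7.11 against 7.46 in control replicates 4 to 6. The opposite signs and the difference of 2.14 thus rest on the match by number, a match that the correlations did not show.

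Among the lines, no trend of Smarcd3 with the repeat number passed the test. Its slope over the 12 knock-in arrays was -0.61 per 100 repeats (SE 0.51, limma adjusted p = 0.985), and line and repeat number cannot be told apart. Of the 9 genes, 0 passed this trend test in limma and 0 had an unadjusted p under 0.05, beside 0.0526% of all genes called (0.021% higher and 0.0315% lower). An F-test in limma of whether the line means differ, added after the data were seen, passed for 0 of the 9 genes, beside 0.116% of all genes. Its lowest limma adjusted p among them was 0.178, for Smarce1, and it was 0.668 for Smarcd3.

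Across the 24 arrays the levels most like Smarcd3 were those of Cobl (Pearson r 0.95 over arrays and 0.96 over the 6 group means), Kank4 (0.95 and 0.95) and Ppp2r5a (0.94 and 0.96), among 9510 genes ranked. The most opposite were Jag1 (-0.93 and -0.97), Dnm1l (-0.93 and -0.98) and Bpnt2 (-0.92 and -0.99). Within groups, on deviations from the group means, r was 0.88 for Cobl, 0.88 for Kank4, 0.85 for Ppp2r5a, -0.83 for Jag1, -0.57 for Dnm1l and -0.52 for Bpnt2. All these values are descriptions over arrays that share their groups and replicate sets. In the lines the naive markers moved the same way as Smarcd3, with 5 of 5 past the threshold and lower in Q20, Q91 and Q111 and 3 of 5 lower in Q50. In the knock-out 1 of 5 was higher and 0 lower, while Smarcd3 averaged below control and was not called. Markers of other cell types also differed between the groups.

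Of 10 cardiac and muscle markers, from the tissues where Smarcd3 is best known, only Myh6 and Actc1 passed the filter, and they did so through knock-in arrays alone, so no count is drawn from them. Myh6 averaged 6.95 in Q20, 5.21 in Q50, 6.38 in Q91 and 7.27 in Q111, against 4.47 in controls. Actc1 averaged 5.47, 3.99, 8.14 and 5.52 in the same order of lines, against 3.09 in controls. Nkx2-5, Tbx5 and Gata4 averaged 2.55 or less in every group. The log2 of the summed unlogged levels of the 10 markers spanned 6.22 to 6.32 (knock-out), 7.55 to 7.997 (Q20), 6.18 to 7.32 (Q50), 7.63 to 9.40 (Q91) and 7.72 to 8.15 (Q111), against 6.26 to 6.47 (control). Of 8 fibroblast markers, 3 passed the filter. Col1a1, a chain of type I collagen, averaged 7.98 in Q20, 4.02 in Q50, 7.48 in Q91 and 8.40 in Q111, against 3.73 in controls, while Dcn, Lum and Twist2 averaged 2.43 or less in every group. Thy1 went the other way, at 4.66 in Q20, 4.29 in Q50, 5.09 in Q91 and 5.34 in Q111, against 5.97 in controls. In the knock-out Thy1 averaged 3.30. The log2 of the summed unlogged levels of the 8 fibroblast markers spanned 5.92 to 6.30 (knock-out), 7.24 to 9.19 (Q20), 6.24 to 6.53 (Q50), 6.84 to 8.98 (Q91) and 8.33 to 9.29 (Q111), against 6.39 to 7.45 (control). Of 7 neural markers, 4 passed the filter, and the sums of the lines overlapped those of the controls. Among them Nes, the gene of nestin, averaged 6.72 in Q20, 5.40 in Q50, 7.19 in Q91 and 7.22 in Q111, against 3.91 in controls, while Sox1 averaged 3.50, 4.37, 3.81 and 3.79 in these lines, against 5.75. The part of these cell state differences in the levels of the BAF genes was not tested.

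Smarcd1, the BAF60 protein of esBAF, kept a level above 9 on every array. It read 9.74, 9.49, 9.08, 9.28, 9.81 and 9.92 in the knock-out. The Q20 arrays read 9.42, 9.36 and 9.36, the Q50 arrays 9.79, 9.46 and 9.07, the Q91 arrays 9.47, 9.49 and 9.57 and the Q111 arrays 9.30, 9.48 and 9.33. The controls read 9.94, 9.89, 9.85, 9.59, 9.49 and 9.48. All lines averaged below control. The Q50 and Q91 arrays overlapped the controls, and the Q20 and Q111 arrays all lay below them. In Q111 the gap was very small, with the highest array at 9.4828 and the lowest control at 9.4835. None of the changes passed the test. They were -0.15 in the knock-out (limma adjusted p = 0.512), -0.33 in Q20 (0.163), -0.26 in Q50 (0.347), -0.20 in Q91 (0.444) and -0.34 in Q111 (0.148). The lowest bound of a 95% interval was -0.69, in Q111. Under median centring the Q111 change was -0.46 and passed (limma adjusted p = 0.0450). The Q50 value depended on single arrays, at -0.44 without replicate 1 and -0.077 without replicate 3. The controls were split by replicate set here too, at 9.89 in replicates 1 to 3 and 9.52 in replicates 4 to 6.

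Smarcd2, a BAF60 protein known for its role in granulocytes, lies on chromosome 11. Its strongest probe set read 9.87, 9.92, 9.84, 10.13, 9.96 and 9.94 in the knock-out. The Q20 arrays read 10.56, 10.31 and 10.43, the Q50 arrays 10.15, 10.01 and 10.16, the Q91 arrays 10.48, 9.79 and 10.14 and the Q111 arrays 10.53, 10.31 and 10.39. The controls read 10.20, 10.18, 10.03, 9.62, 10.30 and 10.24. The Q20 and Q111 arrays all lay above the controls, and the knock-out, Q50 and Q91 arrays overlapped them. No change passed the test, with -0.15 in the knock-out (limma adjusted p = 0.419), 0.34 in Q20 (0.0802), 0.010 in Q50 (0.976), 0.044 in Q91 (0.861) and 0.32 in Q111 (0.0994). The probe sets of Smarcd2 disagreed. The weakest, at 6.34 to 7.09, fell in Q111, with a change of -0.41 (limma adjusted p = 0.0195), while the middle one changed by 0.32 (0.140). Smarcd2 thus has no settled direction in Q111.

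Neither Smarcd1 nor Smarcd2 thus passed the threshold on its strongest probe set in any line or in the knock-out, while Smarcd3 was low in every line.

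**Figure D2:**
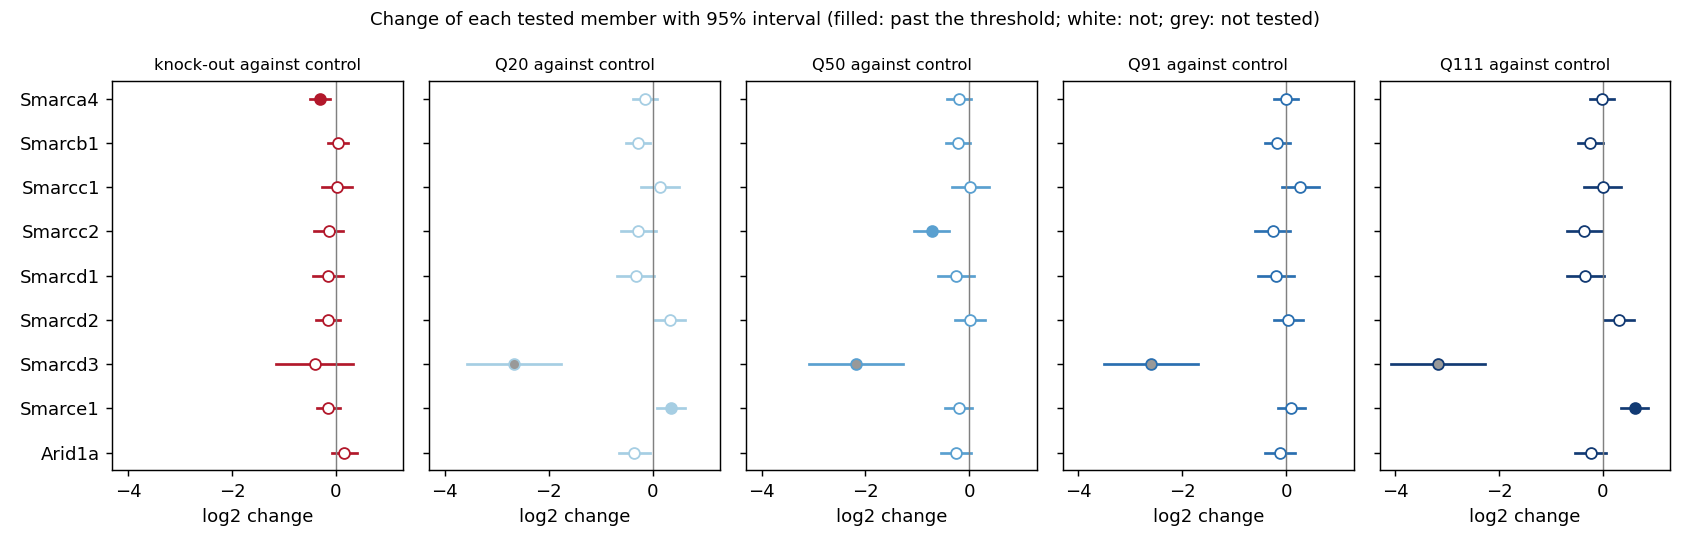
Log2 change of each of the 9 tested genes against control, by group, with 95% intervals from the limma fit; filled points passed the threshold of 0.05, white points did not, and grey points (Smarcd3 in the lines) were not tested. Smarcd3 lies between -3.17 and -2.18 in the lines, and every other point lies between -0.73 and 0.61.

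Of the ATPases, Smarca4, the only one of esBAF, fell in the knock-out. It read 12.13, 11.81, 11.78, 11.86, 12.15 and 12.14 in the knock-out arrays, against 12.35, 12.46, 12.23, 12.08, 12.28 and 12.32 in controls. The groups overlapped at 1 control array, replicate 4. The means were 11.98 ± 0.18 and 12.28 ± 0.13 in that order (SD, n = 6 each), a change of -0.31 (SE 0.09, limma adjusted p = 0.0243), or 1.24-fold lower. This was 1 of 9 tested genes called in the knock-out, or 1 lower and 0 higher, beside 16.3% of all genes (7.55% higher and 8.8% lower). The call was lost on leaving out control replicate 2 or knock-out replicates 2, 3 or 4, with limma adjusted p of 0.0577 to 0.0618, on the mean of both probe sets (-0.30, 0.0682), and within replicates 1 to 3 (-0.44, 0.0660) or 4 to 6 (-0.18, 0.464). Smarca4 was not called in the lines, where it changed by -0.14 in Q20, -0.20 in Q50, -0.0061 in Q91 and -0.013 in Q111. Its second probe set changed by -0.23, 0.20, 0.32 and 0.22 in the same order of lines, and none of these passed the threshold.

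Smarca2, the other ATPase, was not told from background. Its probe sets read 2.29 to 4.15 over all 24 arrays, so it was not in the fit. Levels this low say nothing of whether it differed between the groups.

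Among the core subunits, Smarce1 rose in Q20 and Q111. The protein carries the HMG box that binds DNA, and its gene lies on chromosome 11, as Smarcd2 does. Its strongest probe set read 10.75, 10.50, 10.62, 10.59, 10.70 and 10.62 in the knock-out. The Q20 arrays read 11.22, 11.23 and 10.93, the Q50 arrays 10.76, 10.62 and 10.33, the Q91 arrays 11.25, 10.78 and 10.59 and the Q111 arrays 11.42, 11.34 and 11.39. The controls read 10.81, 10.70, 10.89, 10.51, 10.88 and 10.87. All Q20 and Q111 arrays lay above all controls, as did replicate 1 of Q91, while its other arrays overlapped them. The change was 0.61 in Q111 (SE 0.13, limma adjusted p = 0.00139) and 0.35 in Q20 (SE 0.13, limma adjusted p = 0.0443), and the second probe set gave 0.55 and 0.57 (limma adjusted p = 0.0141 and 0.0125). Smarce1 did not pass in the knock-out (-0.14, limma adjusted p = 0.396), Q50 (-0.20, 0.330) or Q91 (0.10, 0.639). On the second probe set these changes were 0.19, 0.082 and 0.25 in that order, and none passed. Smarce1 was the 1 of 8 tested genes called in Q20, beside 26.7% of all genes (16.3% higher and 10.4% lower), and the 1 of 8 in Q111, beside 27.5% (16.4% higher and 11.1% lower). Neither count exceeds the background. The Q20 call was lost on leaving out Q20 replicate 1 (0.31, limma adjusted p = 0.173), Q20 replicate 2 (0.30, 0.165) or control replicates 1, 2 or 4, and under quantile normalization (0.28, 0.0881) and median centring (0.25, 0.113).

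Other genes of chromosome 11 read higher on the same arrays as Smarce1. The median change of the 799 other tested genes there was 0.46 in Q20 and 0.43 in Q111, the highest of 20 chromosomes in both lines, with 50.3% and 48.6% of them called higher. By array, the median over the control mean was 0.39 to 0.49 in Q20, 0.42 to 0.48 in Q111 and 0.47 in replicate 1 of Q91, against -0.10 to 0.16 in controls. The other Q91 arrays stood at -0.084 and -0.082, and the Q50 arrays at -0.11 to -0.0067. The knock-out arrays stood at -0.32 to -0.12, with a median change of -0.22, the lowest of 20 chromosomes. Relative to the chromosome median, in a comparison added after the data were seen, Smarce1 changed by -0.11 in Q20 and 0.18 in Q111, and Smarcd2 by -0.12 in Q20 and -0.11 in Q111. In the knock-out these relative values were 0.073 for Smarce1 and 0.065 for Smarcd2. Smarce1 in Q20 and the knock-out, and Smarcd2 in Q20, Q91 (-0.032), Q111 and the knock-out, so turned direction, and of these only Smarce1 in Q20 had been called. The part of the chromosome in these changes was not tested.

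**Figure D3:**
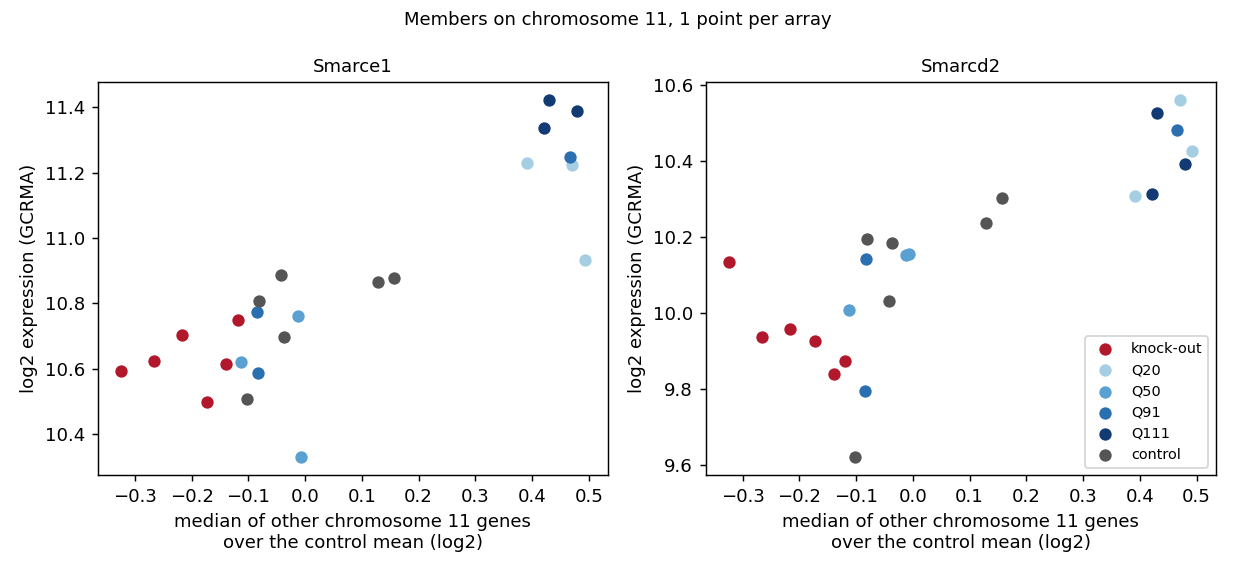
Log2 expression of Smarce1 and Smarcd2 on each array (y axis) against the median difference of the 799 other tested chromosome 11 genes from their control mean on that array (x axis, log2), coloured by group. The Q20 and Q111 arrays and 1 Q91 array lie to the right at 0.39 to 0.49 with high levels of both genes, and all knock-out arrays lie at -0.12 or below.

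Smarcc2, a scaffold subunit that is low in embryonic stem cells and known from neural BAF, fell in Q50. It read 6.36, 5.75 and 5.30 in Q50, against 6.55, 6.60, 6.83, 6.42, 6.40 and 6.41 in controls, with no overlap. The change was -0.73 (SE 0.16, limma adjusted p = 0.00969). It was 1 of 8 genes called in Q50, beside 7.51% of all genes (5.08% higher and 2.43% lower). The lowest Q50 array was replicate 3, the array with the large Actb difference between its ends, and without it the change was -0.48 (limma adjusted p = 0.0727). The call was also lost with only the groups compared in the fit (0.0870) and with control replicates 4 to 6 alone (-0.60, 0.0930). In the other groups Smarcc2 spanned 6.23 to 6.68 (knock-out), 6.06 to 6.49 (Q20), 6.23 to 6.35 (Q91) and 6.11 to 6.29 (Q111). These changes were -0.14, -0.27, -0.26 and -0.36 in that order, with none past the threshold. The Q91 and Q111 arrays, like those of Q50, all lay below the lowest control (6.40), while the knock-out and Q20 arrays overlapped the controls. Under quantile normalization Smarcc2 also passed in Q20 (-0.45, limma adjusted p = 0.0375) and Q111 (-0.55, 0.0117). In Q111 it passed as well under median centring (-0.48, 0.0297) and with only the groups compared (-0.36, 0.0479).

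Its paralogue Smarcc1, the scaffold of esBAF, did not pass in any comparison. The strongest probe set spanned 10.77 to 11.64 (knock-out), 11.47 to 11.48 (Q20), 11.28 to 11.47 (Q50), 11.34 to 11.90 (Q91) and 11.24 to 11.37 (Q111), against 10.83 to 11.50 (control). Its changes lay between -0.0039, in Q111, and 0.27, in Q91. Smarcb1, the core subunit lost in rhabdoid tumours, averaged 10.93 ± 0.19 in the knock-out, 10.60 ± 0.09 in Q20, 10.67 ± 0.08 in Q50, 10.72 ± 0.18 in Q91, 10.64 ± 0.05 in Q111 and 10.88 ± 0.16 in controls (SD, n = 6 in knock-out and control, 3 in each line). Its mean lay below control in all lines, with changes of -0.28 to -0.17, and none passed the test (limma adjusted p of 0.0732 in Q20 and 0.124 in Q111). Smarcb1 passed as lower in Q20 under quantile normalization (-0.34, limma adjusted p = 0.0242) and median centring (-0.39, 0.0254), and in Q111 likewise (-0.30, 0.0446, and -0.36, 0.0335). Of the 8 genes tested in Q91, 0 passed the threshold and 0 had an unadjusted p under 0.05 in limma, beside 24.6% of all genes called (13.4% higher and 11.3% lower).

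Arid1a, the DNA-binding subunit of esBAF, did not pass against control in any group. It averaged 12.50 ± 0.16 in the knock-out, 11.98 ± 0.22 in Q20, 12.08 ± 0.07 in Q50, 12.22 ± 0.33 in Q91, 12.10 ± 0.20 in Q111 and 12.34 ± 0.18 in controls (SD, n = 6 in knock-out and control, 3 in each line). Against control the change was 0.17 in the knock-out (limma adjusted p = 0.372), and -0.35 in Q20 (0.0716), -0.26 in Q50 (0.266), -0.12 in Q91 (0.600) and -0.24 in Q111 (0.226). In Q20 it passed as lower under median centring (-0.46, limma adjusted p = 0.0301), without control replicate 6 (-0.41, 0.0398) and with control replicates 1 to 3 alone (-0.45, 0.0495). The second probe set differed from control by -0.20 to 0.042.

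**Figure D4:**
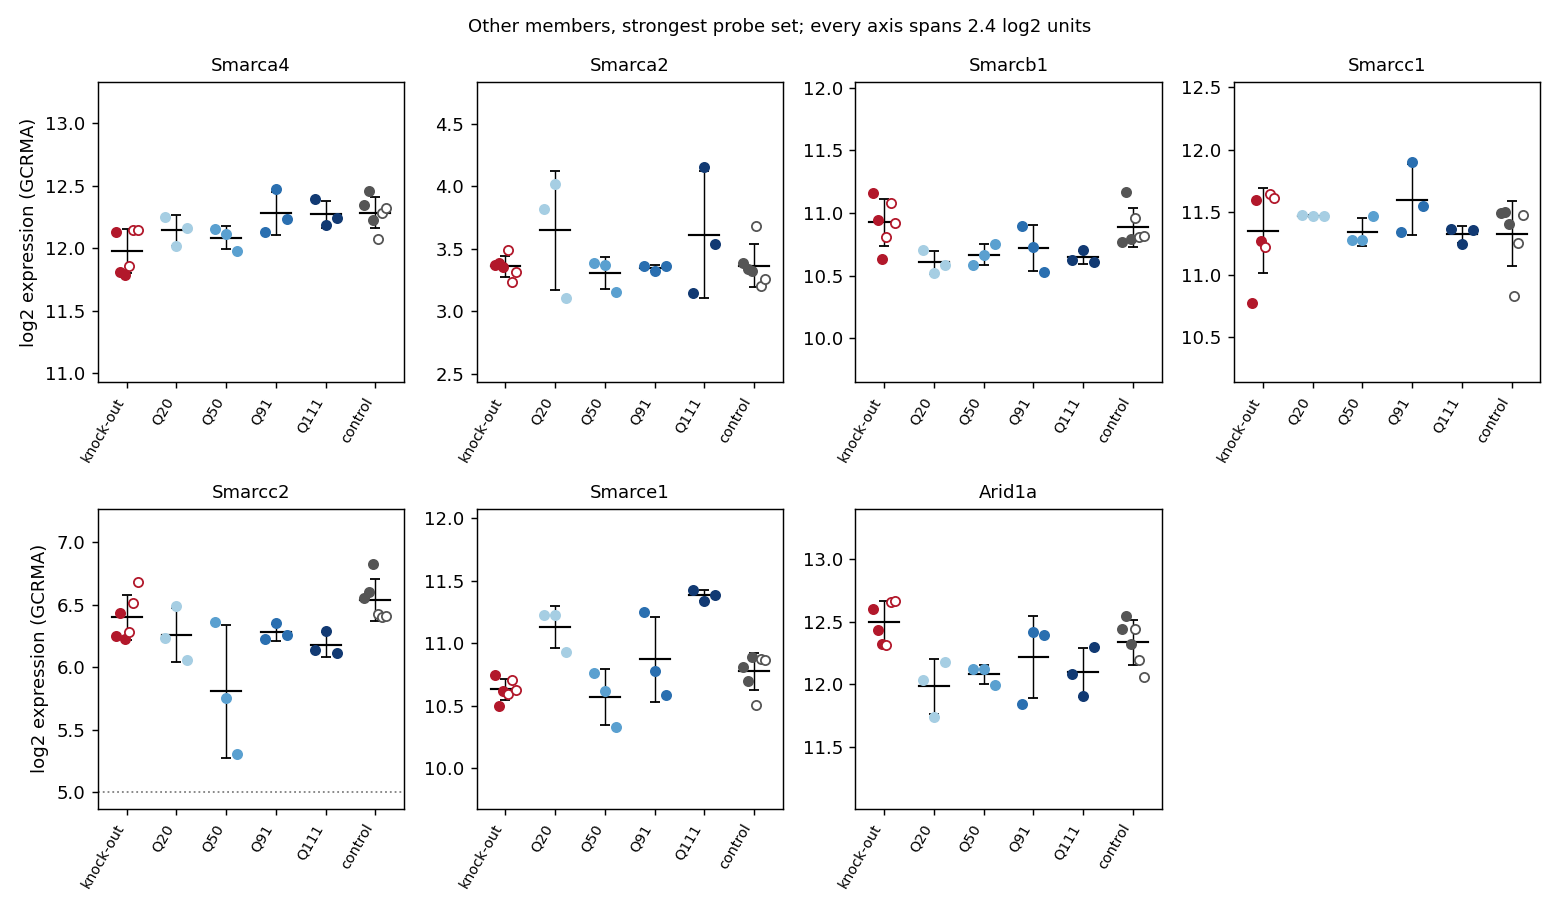
Log2 expression of the 7 genes outside the BAF60 family on each array, by group, on axes that each span 2.4 log2 units; bars are mean ± SD, filled points are replicates 1 to 3 and open points replicates 4 to 6. Smarce1 is high in Q20 and Q111, Smarcc2 averages lowest in Q50 and Smarca2 lies under 5 throughout.

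Set against the mean of the lines, the knock-out differed in 5 of the 8 genes tested, beside 49.1% of all genes (21.2% higher and 27.9% lower). Arid1a (0.41, limma adjusted p = 0.00213) and Smarcb1 (0.27, 0.00897) were higher in the knock-out. Smarce1 (-0.36, 0.00258), Smarcd2 (-0.33, 0.00927) and Smarca4 (-0.22, 0.0266) were lower. The Smarca4 call was lost without knock-out replicates 2, 3 or 4 and under median centring (-0.14, 0.133). For Arid1a and Smarcb1 the second probe set was smaller and did not pass (0.089, limma adjusted p = 0.537, and 0.11, 0.156). For Smarca4 the second probe set went the same way and did not pass (-0.43, limma adjusted p = 0.0561). The second Smarce1 probe set averaged 10.68 in the knock-out, which lay above Q50 (10.56) and below Q20 (11.05), Q91 (10.73) and Q111 (11.03). Its change against the lines and whether that passed are not given here. Against control the 2 Smarce1 probe sets went opposite ways in the knock-out (-0.14 and 0.19), and neither passed. For Smarcd2 the weakest probe set went the other way and passed (0.26, 0.0207). Smarce1 and Smarcd2 lie on chromosome 11, where the median change in this comparison was -0.46.

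The other subunits of BAF, PBAF and the non-canonical ncBAF complex were counted as a list of 20 genes, of which 17 were tested. In the knock-out 5 were higher and 1 lower, beside 7.55% and 8.8% of all genes, with a median change of 0.20 beside -0.019 over all genes. The 5 include Bcl11a, which passed the filter through the knock-out arrays. The counts were 2 higher and 1 lower in Q20 (16.3% and 10.4% of all genes), 1 higher and 0 lower in Q50 (5.08% and 2.43%), 2 higher and 2 lower in Q91 (13.4% and 11.3%), and 2 higher and 2 lower in Q111 (16.4% and 11.1%). Medians in the lines ran between 0.0084 and 0.057.

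Bicral, a subunit found in ncBAF, fell furthest. It read 9.25, 9.14 and 9.78 in Q20, 9.24, 9.53 and 9.72 in Q91 and 9.32, 9.20 and 9.86 in Q111, against 10.06 to 10.73 in controls, with no overlap. Its changes were -1.09 in Q20, -0.98 in Q91 and -1.02 in Q111 (limma adjusted p = 0.000128, 0.000308 and 0.000204). In Q50 it read 10.34, 9.85 and 10.26 and in the knock-out 10.14 to 10.47, overlapping controls, with changes of -0.33 (limma adjusted p = 0.233) and -0.16 (0.501). Arid2, the subunit that defines PBAF, was higher in the knock-out (0.50, limma adjusted p = 0.00173), Q20 (0.37, 0.0278), Q91 (0.51, 0.00390) and Q111 (0.33, 0.0498). Its Q91 arrays read 9.58, 10.24 and 10.23, and replicate 1 lay within the controls (9.34 to 9.67). The other arrays of these groups lay above the controls. Arid1b, the paralogue of Arid1a, was called higher in the knock-out (0.50, 0.0466), where its arrays (7.46 to 8.50) overlapped the controls (6.93 to 8.04). Bcl11a, a zinc finger protein, averaged 4.94 in the knock-out against 4.30 in controls, both under 5. It reached 5 only in knock-out replicates 4, 5 and 6 (5.57, 5.05 and 5.03) and in Q111 replicate 2 (5.14), so its call there (0.64, 0.0159) supports nothing. Ss18, a subunit of BAF and ncBAF, was higher in Q50 (0.43, 0.0398) and Q91 (0.51, 0.00573). Its Q91 arrays read 11.69, 12.32 and 12.33, and replicate 1 lay within the controls (11.43 to 11.70), while all Q50 arrays lay above them. Bcl7b was lower in Q91 (-0.42, 0.0481) and Q111 (-0.48, 0.0222).

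**Figure D5:**
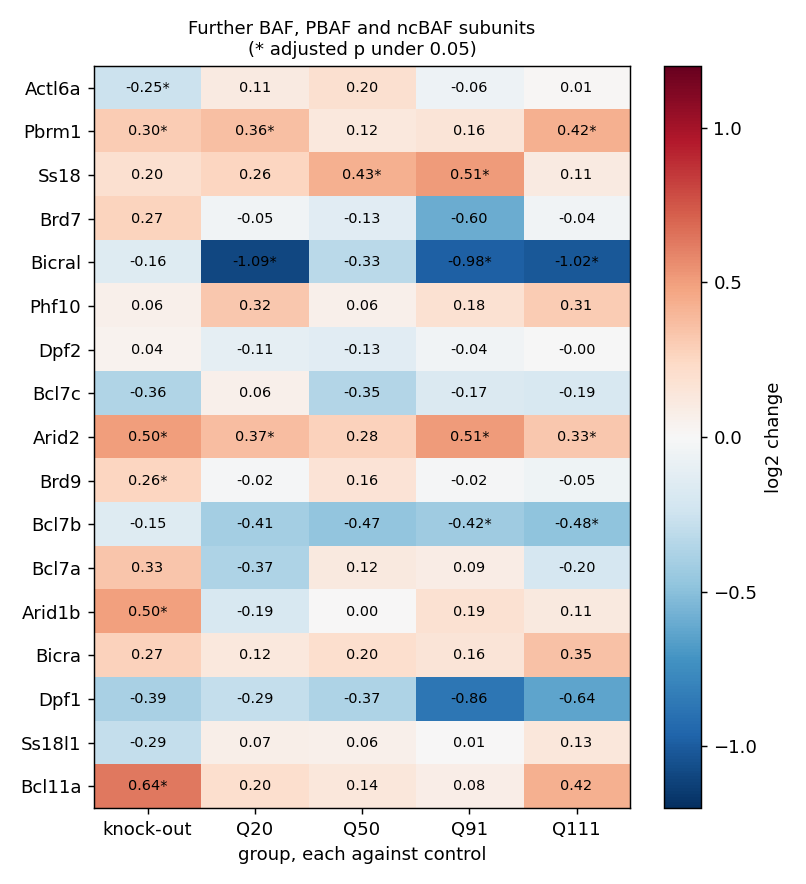
Log2 change against control of the 17 tested further subunits (rows, by falling control mean) in each group (columns), with the value printed in each cell and a star where the adjusted p is under 0.05. Bicral is the darkest row, at -1.09, -0.98 and -1.02 in Q20, Q91 and Q111, and the knock-out column holds 5 starred rises, Bcl11a among them, and 1 starred fall.

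The lists of other remodellers are given by count. The shares of all genes called higher and lower, given above for each group, are the background for these counts, at 16.3% in either direction in the knock-out, 26.7% in Q20, 7.51% in Q50, 24.6% in Q91 and 27.5% in Q111. Of 13 ISWI genes tested, 0 were higher and 1 lower in the knock-out, and the lines had 1 higher and 1 lower in Q20, 0 and 0 in Q50, 3 and 0 in Q91 and 2 and 0 in Q111. Of 12 NuRD genes tested, 0 were higher and 1 lower in the knock-out, and 1, 2, 1 and 1 were higher in Q20, Q50, Q91 and Q111, with 0 lower in each.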

How the data were processed

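Expression was measured on 24 Affymetrix MG 430 2.0 arrays of biotin-labelled RNA. GCRMA, per the submitters' processing notes, is how the authors made the deposited log2 values. That method adjusts background by probe sequence and normalizes arrays together, so levels of different probe sets are not compared here. The notes give no version. The lowest value was -0.18, the highest 17.19.

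The 64 AFFX controls were left out. Of 45037 probe sets, the platform annotation gave 1 gene for 34945 and several for 932, and 9160 are unnamed here. The 17980 (39.9%) with log2 of 5 or more on at least 3 arrays were fitted with limma 3.58.1 in R 4.3.3, on 6 group means, leaving 18 residual degrees of freedom. The repeat slope used the knock-in arrays alone. The fit was tested on simulated data. Exact two-sided permutation tests of single values used scipy 1.17.1. The smallest p they could give was 0.00216 for 6 arrays against 6 and 0.0238 for 3 against 6, and the lowest p adjusted over 91 such tests was 0.135. The number of arrays limits the precision.

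The members and lists were chosen with earlier results of these data known. Named genes were all 10 members, the 6 further subunits with the largest called change, the 3 genes most like and the 3 most unlike Smarcd3 by Pearson r, and Htt. Alternatives were quantile normalization, median centring, no filter, a filter at 6, fits of the compared groups alone, a replicate block, a trended robust prior, means of probe sets, each array left out, and replicate sets. The chromosome median, the replicate-set interaction and an F-test among the lines were added after seeing the data. Positions and sequences came from RefSeq, GRCm38.p6. A protein table was not used here.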

Additional observations from a re-analysis of the deposited data

Results flagged for a closer look

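Among 34 groups of 6 arrays examined over the probe sets, 2 held an array far from the others, and chance gives about 1 in 20. The weaker Smarcb1 probe set read 9.64 in knock-out replicate 4, against 9.38 to 9.48 in the other knock-out arrays. The weaker Smarce1 probe set read 10.12 in control replicate 5, against 10.45 to 10.63 in the other controls.

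With sets matched by number, the knock-out effect on Smarcd3 differed between replicates 4 to 6 and replicates 1 to 3 by 2.14 on the log2 scale. The labels explain neither this split nor the match of the sets. Correlations between control and knock-out arrays were negative in that match and positive in the opposite one. The knock-out change also differed from the mean change of the lines, by the test of the difference, for Smarca4 (-0.22), Smarcb1 (0.27), Smarcd2 (-0.33), Smarce1 (-0.36) and Arid1a (0.41). In that comparison 49.1% of all genes were called, and the limits by probe set and chromosome given above apply.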

How the results depend on the processing

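The number of tested genes called in the knock-out (1) became 0 with the mean of a gene's probe sets and within replicates 1 to 3 or 4 to 6 alone. The fits within replicate sets match them by number, with the limit given above. In Q20 the count (1) became 2 under quantile normalization and 2 under median centring, all of them lower, and 0 with no filter, with only the groups compared, under the replicate block and with control replicates 4 to 6 alone. In Q50 the count (1) became 0 with only the groups compared and with control replicates 4 to 6 alone. In Q111 the count (1) became 3 under quantile normalization, 4 under median centring and 2 with only the groups compared. Leaving out 1 array at a time gave counts of 0 to 1 (knock-out), 0 to 2 (Q20), 0 to 1 (Q50), 0 to 0 (Q91), 1 to 1 (Q111), 4 to 6 (knock-out against the lines) and 0 to 0 (trend). The causes were not tested.

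Replicate numbers were not taken as pairs, since the correlation of same-numbered arrays had a median of 0.053 (-0.41 to 0.46), with 19 of 48 above 0.1. For arrays of different numbers the median was -0.013, with 38 of 186 above 0.1. Same-numbered arrays of Q20 and Q111 (0.39, 0.46 and 0.39) and of Q50 and Q91 (0.32, 0.41 and 0.20) correlated in every pair, as a hint from the data, but no group did so with control, nor all lines with each other. Under the replicate block Smarce1 in Q20 was 0.35 (limma adjusted p = 0.0594) and Smarca4 in knock-out against the lines -0.22 (0.0547). Median centring shifted the median gene to -0.099 in Q20 (0.0094 as deposited) and -0.13 in Q111 (-0.0051). The split of all genes into higher and lower was then 1184 and 1708 in Q20 (1554 and 990 as deposited), 301 and 411 in Q50 (483 and 231), 1023 and 1520 in Q91 (1271 and 1073), 1177 and 1917 in Q111 (1558 and 1055) and 2648 and 2157 for knock-out against the lines (2015 and 2653). Quantile normalization gave 1304 and 1644 in Q20, 339 and 437 in Q50, 1127 and 1452 in Q91, 1331 and 1822 in Q111 and 2734 and 2266 for knock-out against the lines.

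Of changes against control that turned direction, only that of Smarce1 in Q20 had been called (-0.11 relative to its chromosome). Values relative to the chromosome were not computed for the knock-out against the lines. There Smarce1 (-0.36) and Smarcd2 (-0.33) were called, beside a chromosome 11 median of -0.46, so whether these calls would turn is not given. Smarcd2 (-0.12 in Q20, -0.032 in Q91, -0.11 in Q111, 0.065 in the knock-out), Smarce1 (0.073 in the knock-out), Smarcc1 (-0.037 in Q50, 0.037 in Q111) and Smarca4 (0.00098 in Q91, 0.027 in Q111) also turned relative to their chromosomes. In the knock-out, Smarce1 was 0.025 on the mean of probe sets, Smarcc1 -0.25 in replicates 1 to 3, and Smarcc2 0.082, Smarcd1 0.15 and Smarcd3 0.66 in replicates 4 to 6. In Q50, Smarcc1 was -0.049 under quantile normalization, -0.063 under centring and -0.12 with control replicates 1 to 3, and Smarcd2 was -0.063, -0.067 and -0.031 in these settings and -0.15 on the mean of probe sets. In Q91, Smarcd2 was -0.031 under centring and -0.053 on the mean of probe sets, and Smarca4 was 0.16 on that mean and 0.052 with control replicates 4 to 6. In Q111, Smarca4 was 0.11 on that mean and 0.045 with those controls, and Smarcc1 was 0.11 and 0.13. With 1 array left out, ranges crossing 0 in Q111 were -0.073 to 0.031 for Smarca4 and -0.10 to 0.036 for Smarcc1. In Q50 they were -0.085 to 0.048 for Smarcc1 and -0.085 to 0.059 for Smarcd2. In Q91 they were -0.22 to 0.070 for Arid1a, -0.10 to 0.068 for Smarca4, -0.13 to 0.22 for Smarcd2 and -0.093 to 0.24 for Smarce1. In the knock-out they were -0.0059 to 0.099 for Smarcb1 and -0.073 to 0.14 for Smarcc1, and against the lines -0.14 to 0.035 for Smarcc1. A fit of only the groups compared was not run for the repeat trend, which already uses only the lines. Levels under 5 limit the size of Smarcd3 in Q111 and say nothing of Smarca2.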
